A study of Mus musculus with 2 samples.

Results

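The latent TGF-beta binding proteins Ltbp1, Ltbp2, Ltbp3 and Ltbp4 and the emilins Emilin1 and Emilin2 were examined in the developing mouse lung at postnatal day 3. These 6 genes were taken by symbol from 19690 symbols that stand in at least 1 of the 2 expression tables of the study, and all 6 were present in both tables. The first table held sorted single cells of the wild-type peripheral lung, and the second a bulk library of the PDGFRA+ cells of the peripheral lung. These came from Pdgfra-H2BGFP mice, a line in which a nuclear fluorescent protein reports Pdgfra. Both lungs were labelled as controls, both were from postnatal day 3, and no treatment was named. Each group had 1 library, so no difference between libraries or cell classes could be tested against replicate error, and the differences given here are sizes only. Whether cells of several animals were pooled was not stated in the sources used here.

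Latent TGF-beta binding proteins are secreted glycoproteins built of repeats like those of the fibrillins, and they attach to the microfibrils that carry elastic fibres. Most of them are bound covalently to the propeptide of TGF-beta inside the cell, so that the growth factor is stored in the matrix until integrins or proteases release it. LTBP2 is the member that does not bind latent TGF-beta, and LTBP4 is needed with fibulin-5 for elastic fibre assembly in the lung. Emilins are multimeric glycoproteins found where elastin meets microfibrils. EMILIN1 binds integrins that carry the chains encoded by Itga4 and Itga9, and it limits the processing of the TGF-beta precursor. In the days after birth, alveolar myofibroblasts deposit elastin at the tips of the growing septa, while lipofibroblasts and adventitial fibroblasts form the rest of the lung's fibroblast compartment.

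The 6 genes lie on 5 chromosomes (coordinates on mm10, gene models of GENCODE M21). Ltbp1 (ENSMUSG00000001870.16) spans chr17:75005568-75392512 on the plus strand with 37 exon blocks. Ltbp2 (ENSMUSG00000002020.15) spans chr12:84783212-84876532 on the minus strand with 35. Ltbp3 (ENSMUSG00000024940.11) spans chr19:5740904-5758532 on the plus strand with 23. Both emilins have compact transcripts beside these. Emilin1 (ENSMUSG00000029163.9) spans chr5:30913402-30921277 on the plus strand with 5 exon blocks, and Emilin2 (ENSMUSG00000024053.11) spans chr17:71252172-71311978 on the minus strand with 13. Ltbp4 (ENSMUSG00000040488.17) spans chr7:27305136-27337692 on the minus strand with 35. Ltbp2 shares 764 exonic bases, 9.34% of its own, with the antisense transcript D030025P21Rik. The strand setting of the bulk counting was not given in the sources used here, so bulk reads from this stretch cannot be told apart between the 2 transcripts. Over all kept single cells D030025P21Rik had 46 UMIs, and the bulk table does not list it.

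The starts of the 3 members that part the cells most clearly, Ltbp2 and Ltbp4 between fibroblast classes and Emilin2 between myeloid and mesenchymal cells, are shown from the RefSeq sequence of GRCm38.p6. Each window runs from 250 bases before to 50 after an annotated start, 5′ to 3′ on the gene's own strand, and capitals mark motif matches. The windows are chr12:84876442-84876741 (minus strand) for Ltbp2, chr7:27337563-27337862 (minus strand, the most upstream of its 3 windows) for Ltbp4 and chr17:71310962-71311261 (minus strand, the downstream of its 2 windows) for Emilin2.
Ltbp2: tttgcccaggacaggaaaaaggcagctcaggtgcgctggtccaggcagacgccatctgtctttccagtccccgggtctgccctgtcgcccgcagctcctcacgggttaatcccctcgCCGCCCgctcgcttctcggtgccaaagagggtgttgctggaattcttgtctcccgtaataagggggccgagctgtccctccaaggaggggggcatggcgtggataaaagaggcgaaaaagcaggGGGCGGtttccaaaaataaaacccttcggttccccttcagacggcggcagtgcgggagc
Ltbp4: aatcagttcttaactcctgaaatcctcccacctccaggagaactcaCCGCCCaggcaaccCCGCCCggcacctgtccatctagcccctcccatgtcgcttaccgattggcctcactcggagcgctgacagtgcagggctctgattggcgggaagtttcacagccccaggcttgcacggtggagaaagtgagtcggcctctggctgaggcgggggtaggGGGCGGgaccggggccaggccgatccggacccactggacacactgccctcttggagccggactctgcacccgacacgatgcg
Emilin2: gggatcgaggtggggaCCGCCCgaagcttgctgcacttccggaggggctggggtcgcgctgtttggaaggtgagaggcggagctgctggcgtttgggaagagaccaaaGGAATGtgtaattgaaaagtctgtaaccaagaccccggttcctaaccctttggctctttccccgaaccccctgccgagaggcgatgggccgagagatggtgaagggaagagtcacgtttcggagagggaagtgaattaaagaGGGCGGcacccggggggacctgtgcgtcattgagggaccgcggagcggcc
In these windows the capitals are GGGCGG, the letters of a GC box, read on either strand (CCGCCC is the same box on the other strand), and in the Emilin2 window also GGAATG, the core bound by TEAD factors. The Ltbp2 window held 2 GC boxes, the Ltbp4 window held 3, and the Emilin2 window held 2 GC boxes and 1 GGAATG. Of all 32851 promoter windows of the same length, 35.7% held GGGCGG and 14.7% held GGAATG on either strand. Across the 10 windows of the 6 members, GGGCGG stood in 5 windows of 3 genes, GAGGAA (an ETS core, in 28.3% of all windows) in 2 windows, and TGACGTCA (a cyclic AMP response element, in 1.79%) and TGANTCA (an AP-1 element, in 7.81%) in 1 window each. The CArG box, bound by serum response factor, stood in 1.63% of all windows and in 0 of these 10. These matches describe letters in the windows and nothing about binding.

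The single-cell table held 11306 cells and 17758 genes. Its values are whole UMI numbers that were corrected for depth before deposit: cell totals ran only from 3859 to 6899, while detected genes per cell ran from 709 to 3760. After 646 cells with more than 10% mitochondrial UMIs and 387 predicted doublets were left out, 10273 cells were clustered without the 6 members or their partner lists. Levels are given as CPM, the values of a class summed and scaled to 1000000. CPM are compared between classes for a single gene, because reads of a 3′ library do not scale with gene length in the same way for all genes. Shares of cells with a UMI carry exact 95% Clopper-Pearson intervals that cover counting error only. T cell-like cells, which are not known to make these matrix proteins, served as the background for free RNA in the droplets. In them the shares with a UMI were 0.686% for Ltbp1, 1.22% for Ltbp2, 1.60% for Ltbp3, 2.67% for Ltbp4, 2.90% for Emilin1 and 3.35% for Emilin2, at a median of 1671 detected genes.

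Fibroblast classes were named from marker genes, and the label of the myofibroblasts was only partly borne out. Of 12 myofibroblast markers, Pdgfra (381 CPM), Stc1 and Egfem1 were highest in the 555 myofibroblast-like cells, and 7 were first or second there. Another 8 of the 12 were highest in a cluster of 105 mesenchymal cells led by Aspn, Lrrc15 and Scx, with Fgf18 at 480 CPM there against 204 CPM in the myofibroblast-like cells. That cluster had only 30.7 CPM of Pdgfra and is called unnamed mesenchymal here. The naming rule left it apart because its leading genes held more markers of another mesenchymal type than of its best-scoring type. This separation was not firm. All 105 cells joined the myofibroblast-like class at a coarser clustering and with predicted doublets kept. Under the stricter cell filter 67 joined it and 38 were left out, and at a finer clustering all 105 stayed unnamed. The other fibroblasts were 242 adventitial fibroblast-like cells, with 7 of 12 markers highest there, and 777 lipofibroblast- or matrix-like cells, with 10 of 14.

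Each member had a distribution of its own. Mesenchymal cells, 20.1% of the kept cells, held 93.4% of all Ltbp2 UMIs, 73.5% of Ltbp3, 73.0% of Ltbp4, 68.7% of Emilin1 and 61.6% of Ltbp1. Endothelial cells, 9.71% of the cells, held 25.4% of the Ltbp1 UMIs, 17.8% of Ltbp4 and 15.3% of Emilin1. Emilin2 stood apart from the other 5, with 93.2% of its UMIs (6081 of 6526) in myeloid cells, which made up 41.5% of the cells.

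**Figure D1:**
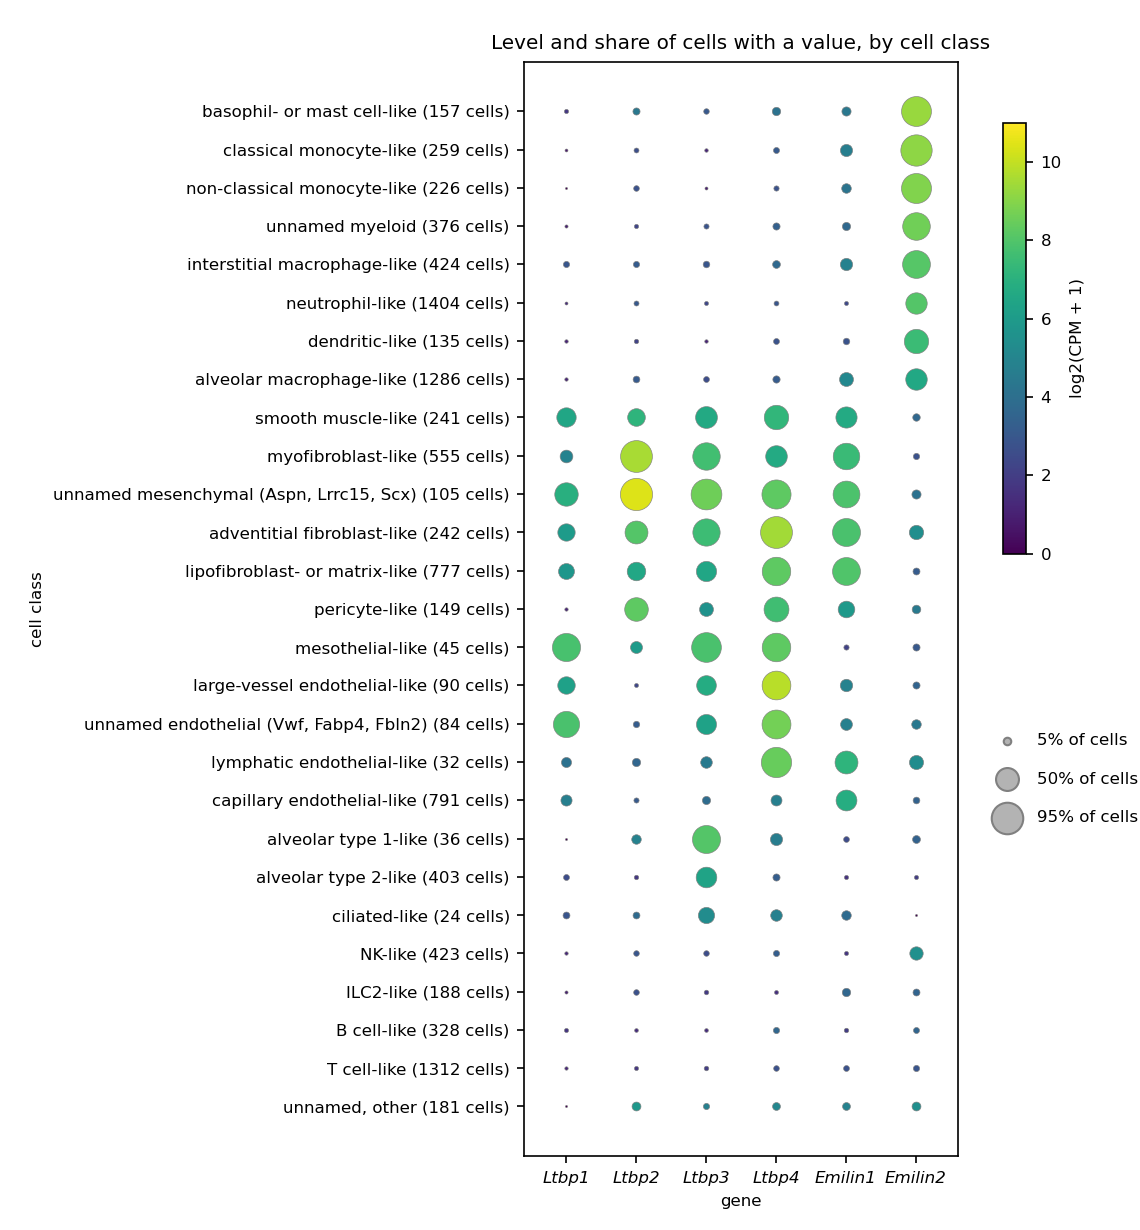
Level and share of cells with a UMI for the 6 members (columns) in each cell class (rows, with the number of cells). Colour is log2(CPM + 1) and dot area is the percent of cells with a UMI; the latent TGF-beta binding proteins fill the mesenchymal rows, with Ltbp2 at 756 CPM in myofibroblast-like cells, and Emilin2 fills the myeloid rows.

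Ltbp2, the member that does not carry latent TGF-beta, was highest in the unnamed mesenchymal cluster and next in the myofibroblast-like cells. It reached 1356 CPM in the unnamed mesenchymal cluster, where 99.0% of cells had a UMI. In the myofibroblast-like cells it was at 756 CPM, with a UMI in 96.8% of cells (95% interval 94.9% to 98.1%) at a median of 2848 detected genes. These 2 shares could not be separated by counting error, although the levels differed. The next classes were pericyte-like cells at 305 CPM (53.0%, 44.7% to 61.2%) and adventitial fibroblast-like cells at 263 CPM (50%, 43.5% to 56.5%), whose intervals overlapped. Smooth muscle-like cells had 142 CPM (29.5%) and lipofibroblast- or matrix-like cells 91.7 CPM (32.7%), again with overlapping intervals. Outside the mesenchyme the highest named class was mesothelial-like at 63.6 CPM.

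Ltbp4, the elastic fibre partner of fibulin-5, followed another order. It was highest in the large-vessel endothelial-like cells at 896 CPM (78.9%, 69.0% to 86.8%), followed by adventitial fibroblast-like cells at 705 CPM (97.1%, 94.1% to 98.8%). The order of these 2 classes by share was thus the reverse of their order by level. At a coarser clustering (resolution 0.5) Ltbp4 was highest in the adventitial fibroblast-like cells, at 706 CPM. The large-vessel class had 90 cells, with 5 of its 10 markers highest there. Unnamed endothelial cells led by Vwf, Fabp4 and Fbln2 had 404 CPM and lymphatic endothelial-like cells 348 CPM. Lipofibroblast- or matrix-like cells had 309 CPM (77.5%, 74.4% to 80.4%), close to the 304 CPM of the unnamed mesenchymal cluster (81.0%, 72.1% to 88%). Pericyte-like cells had 197 CPM and smooth muscle-like cells 148 CPM. Myofibroblast-like cells had 100.2 CPM (44.3%, 40.1% to 48.6%), the lowest of the mesenchymal classes. Capillary endothelial-like cells, at 25.3 CPM, differed widely from the endothelium of large vessels.

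Ltbp3, which carries latent TGF-beta like Ltbp1, was found at unequal levels in mesenchymal, epithelial, mesothelial and some endothelial classes. It stood at 383 CPM in the unnamed mesenchymal cluster (90.5%), 263 CPM in the 36 alveolar type 1-like cells (75.0%, 57.8% to 87.9%) and 230 CPM in mesothelial-like cells. Myofibroblast-like cells had 204 CPM (71.9%, 68.0% to 75.6%) and adventitial fibroblast-like cells 184 CPM (71.1%, 64.9% to 76.7%), so these 2 classes could not be told apart by share. Lipofibroblast- or matrix-like cells had 90.1 CPM (38.7%), near the 99.1 CPM of smooth muscle-like cells (45.2%) and the 81.7 CPM of alveolar type 2-like cells (40.4%). Large-vessel endothelial-like cells had 107 CPM (36.7%) and unnamed endothelial cells 80.7 CPM (38.1%). Levels were lower in pericyte-like cells (47.7 CPM, 18.1%), lymphatic endothelial-like cells (21.7 CPM) and capillary endothelial-like cells (13.5 CPM).

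Ltbp1 was low in myofibroblast-like cells. It was highest in the unnamed endothelial cells at 226 CPM (65.5%, 54.3% to 75.5%) and in mesothelial-like cells at 219 CPM (75.6%, 60.5% to 87.1%), whose intervals overlapped. The unnamed mesenchymal cluster had 121 CPM (52.4%) and smooth muscle-like cells had 90.6 CPM (35.7%). Adventitial fibroblast-like cells had 63.3 CPM (28.5%), lipofibroblast- or matrix-like cells 53.2 CPM (23.9%) and myofibroblast-like cells 28.3 CPM (15.1%, 12.3% to 18.4%). In pericyte-like cells Ltbp1 was at 1.19 CPM, at the level of the T cell-like background of 1.24 CPM.

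Emilin1, the microfibril-associated emilin, was shared by the fibroblast classes at similar levels. Lipofibroblast- or matrix-like cells had 253 CPM (74.3%, 71.0% to 77.3%), the unnamed mesenchymal cluster 234 CPM (68.6%) and adventitial fibroblast-like cells 230.5 CPM (74.8%, 68.8% to 80.1%), with overlapping intervals. Myofibroblast-like cells had 175 CPM (67.0%, 62.9% to 70.9%), with an interval that only just lay below that of the lipofibroblast- or matrix-like cells. Unlike Ltbp4, Emilin1 was higher in capillary endothelial-like cells (112 CPM, 41.3%) than in those of large vessels (28.8 CPM, 14.4%). It was present at low levels in several myeloid classes, above the T cell-like share of 2.90%. Alveolar macrophage-like cells had 33.9 CPM (18.3%, 16.2% to 20.5%), interstitial macrophage-like cells 27.0 CPM (14.2%) and classical monocyte-like cells 24.6 CPM (13.9%, 9.93% to 18.7%). Non-classical monocyte-like cells (8.41%), basophil- or mast cell-like cells (7.64%) and the 376 myeloid cells left without a subtype name (6.12%) had smaller shares. Dendritic-like (3.70%) and neutrophil-like cells (1.14%) lay near or below the T cell-like share.

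Emilin2, the other emilin measured in single cells, was found mainly in myeloid cells. Basophil- or mast cell-like cells had 637 CPM (85.4%, 78.8% to 90.5%), classical monocyte-like cells 564 CPM (93.8%, 90.2% to 96.4%) and non-classical monocyte-like cells 475 CPM (85.8%, 80.6% to 90.1%). The interval of the classical monocyte-like cells overlapped that of the basophil- or mast cell-like cells and lay just above that of the non-classical monocyte-like cells. The 376 unnamed myeloid cells followed at 390 CPM (72.6%). Interstitial macrophage-like cells had 277 CPM (73.8%) and neutrophil-like cells 264 CPM (43.5%), which had a median of only 1008.5 detected genes. Dendritic-like cells had 180.0 CPM, and alveolar macrophage-like cells had the lowest level of the myeloid classes, 96.7 CPM (43.9%). NK-like cells had 43.4 CPM (16.8%, 13.3% to 20.7%), above the T cell-like share of 3.35%. Myofibroblast-like cells (5.89 CPM, 3.42%) and lipofibroblast- or matrix-like cells (7.89 CPM, 4.25%) lay at that background, while adventitial fibroblast-like cells had 41.1 CPM (19.4%, 14.6% to 25%). Over 63 myeloid markers, the summed level was 3869.6 CPM in adventitial fibroblast-like cells, with 10 at 0, against 4535 CPM in lipofibroblast- or matrix-like cells, with 4 at 0. Fn1, which fibroblasts also make, took 1214 CPM of the sum in the adventitial class and 2913 CPM in the lipofibroblast- or matrix-like class. Without it the order turned, with 2655 CPM in the adventitial class against 1621 CPM in the lipofibroblast- or matrix-like class. The medians over all 63 were 6.07 and 4.06 CPM in the same order. The sum without Fn1 still held Vcan, at 581 CPM in the lipofibroblast- or matrix-like class, where Vcan was highest. In the unnamed mesenchymal cluster that sum held the neutrophil genes S100a8 and S100a9, at 407 and 456 CPM. Ptprc, the pan-leukocyte gene, was at 41.8 CPM in the adventitial class and 29.1 CPM in the lipofibroblast- or matrix-like class. The sum without Fn1 was 10304 CPM in pericyte-like cells and 2302 CPM in the unnamed mesenchymal cluster. It was 2244 CPM in smooth muscle-like and 1269 CPM in myofibroblast-like cells. In the same order of these classes, Ptprc was at 100.2, 40.4, 56.2 and 28.0 CPM, and Emilin2 at 21.5, 16.2, 11.9 and 5.89 CPM. The part of myeloid RNA in the adventitial Emilin2 level was not tested.

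Within the myeloid classes, Emilin2 varied from cluster to cluster. A small cluster of 29 macrophages led by Prg4, Fcna and Timd4, genes of resident serosal macrophages, had the highest level, 797 CPM, with a UMI in all 29 cells. Of the basophil- or mast cell-like class, the 134 cells led by the basophil proteases Mcpt8 and Prss34 had 726 CPM (94.8%), against 70.8 CPM (30.4%) in the 23 cells led by the mast cell proteases Tpsb2 and Mcpt4. The 1084 neutrophil-like cells led by Asprv1, Csf3r and Cxcr2, genes of mature neutrophils, had 313 CPM (44.1%). The 320 led by the granule genes Ngp, Camp and Ltf, which precede them in maturation, had 125 CPM (41.6%).

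**Figure D2:**
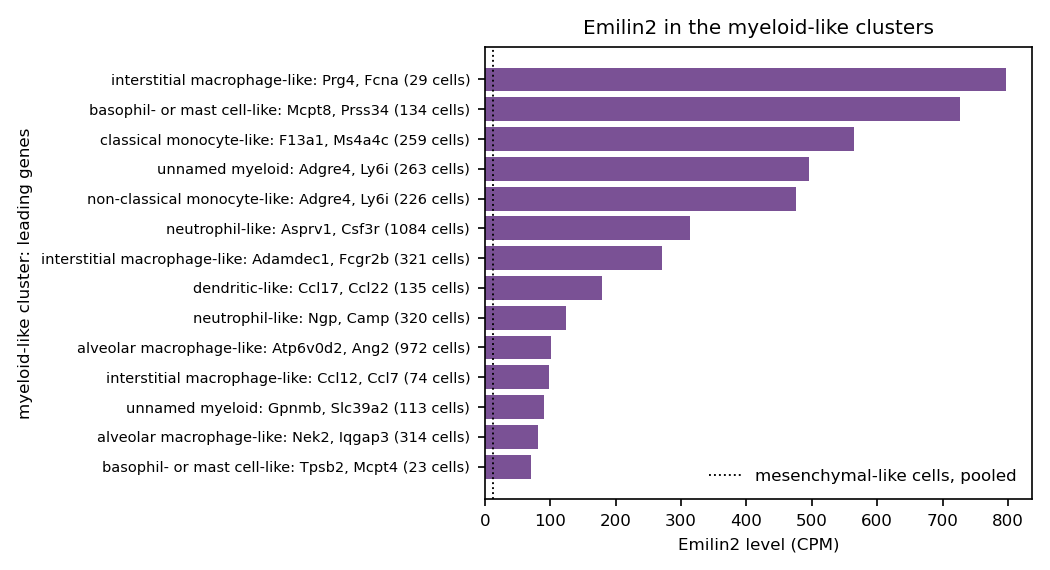
Emilin2 level (CPM) in each myeloid cluster, named by its leading genes, with the mesenchymal level of 13.2 CPM as a dotted line. The cluster of 29 macrophages led by Prg4, Fcna and Timd4 is highest at 797 CPM, and the 2 clusters of the basophil- or mast cell-like class lie far apart, at 726 and 70.8 CPM.

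The first comparison asked how the members part between myofibroblast-like cells and the 1019 other fibroblast-like cells. Ltbp2 was at 756 CPM in myofibroblast-like cells and 135 CPM in other fibroblast-like cells, a log2 ratio of 2.48 on the log2(CPM + 1) scale. That ratio stood at the 98.4th percentile of 12272 genes. Ltbp4 went the other way, at 100.2 CPM in myofibroblast-like cells and 408 CPM in other fibroblast-like cells, a log2 ratio of -2.02 and the 3.93rd percentile. Of these 2 groups, myofibroblast-like cells thus had more Ltbp2 and the other fibroblast-like cells more Ltbp4. The 2 genes were not held apart: 43.6% of the myofibroblast-like cells had a UMI of both. The unnamed mesenchymal cluster, which was in neither group, had both in 80% of its cells.

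Ltbp3 was 0.84 higher on the log2 scale in myofibroblast-like cells, at 204 CPM against 114 CPM in other fibroblast-like cells. Ltbp1 had a log2 ratio of -0.95, at 28.3 CPM in myofibroblast-like cells and 55.7 CPM in other fibroblast-like cells. Emilin1 had a log2 ratio of -0.49, and Emilin2 -1.32 at levels near background in most of these cells. By size, 1 of 6 members was at a log2 ratio of 1 or more, where 8.36% of all genes were, and 2 of 6 were at -1 or less, where 8.91% of all genes were. The median ratio of all genes was 0.09. Joining the unnamed mesenchymal cluster to the myofibroblast-like cells brought Ltbp3 to 1.02 and Ltbp1 to -0.38, and a stricter cell filter (at least 1000 detected genes and at most 5% mitochondrial UMIs) turned Ltbp1 to 0.11. Emilin2 was no longer at -1 or less with predicted doublets kept (-0.73) or with a pseudocount of 5 CPM (-0.96).

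**Figure D3:**
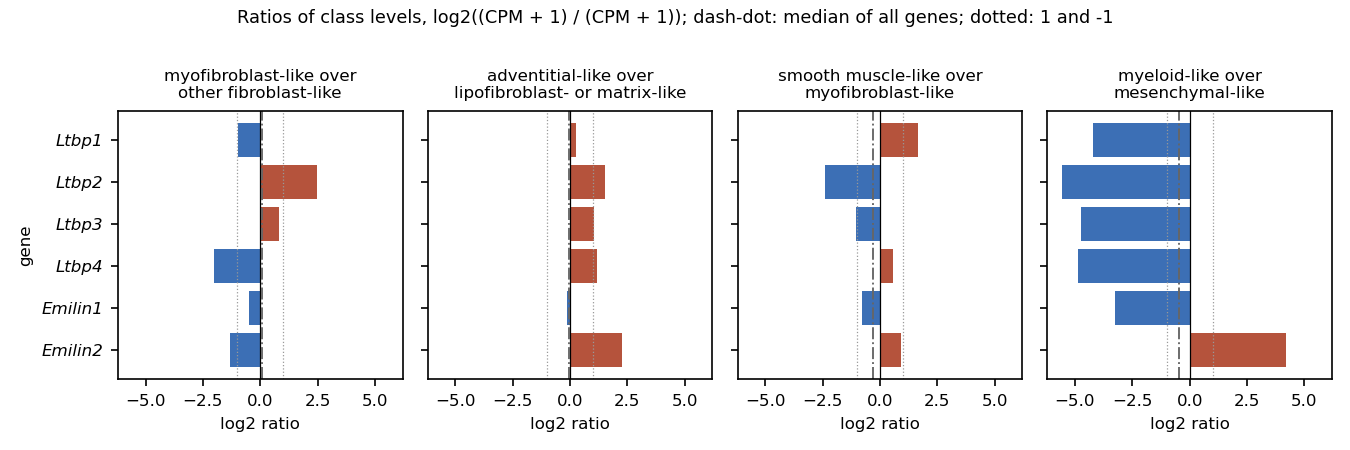
Log2 ratio of (CPM + 1) for the 6 members in 4 comparisons of cell classes in 1 library, with no replicate error. Bars are the ratios (red above 0, blue below), dotted lines at 1 and -1 mark the size used for calls, the dash-dotted line is the median of all genes, and Ltbp2 (2.48) and Ltbp4 (-2.02) lie on opposite sides where myofibroblast-like cells are set over the other fibroblasts.

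The partner genes of the members were also unevenly held by the 2 groups of fibroblasts. Of 20 microfibril and elastic fibre partners tested, 4 reached 1 or more and 8 reached -1 or less, against 8.36% and 8.91% of all genes. Their median was -0.55, against 0.09 for all genes. The low ones included Mfap4, an elastic fibre glycoprotein, at 233 CPM in myofibroblast-like cells and 9603 CPM in other fibroblast-like cells. Fbln5, the fibulin that works with LTBP4, was at 16.5 CPM and 711 CPM in the same order, log2 ratio -5.35. Adamts17, a protease of the fibrillin matrix, had a ratio of -3.54, and Fbln2, another fibulin, -2.93. Ltbp4 and Fbln5 were thus both lower in myofibroblast-like cells.

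Of the 5 ligands and membrane anchors of latent TGF-beta, 0 were at 1 or more, where 8.36% of all genes were. At -1 or less was 1, the anchor Lrrc32 with 42 UMIs, where 8.91% of all genes were. The median of the 5 was 0.19, against 0.09 for all genes. The ligand Tgfb3 was at 101 CPM in myofibroblast-like cells and 55.9 CPM in other fibroblast-like cells. Of 12 activators, 3 reached 1 or more and 1 reached -1 or less, with a median of 0.37. Plat, the tissue plasminogen activator, was at 222 CPM in myofibroblast-like cells and 21.4 CPM in other fibroblast-like cells. Itgav, the integrin chain that binds the TGF-beta propeptide, was at 133 CPM in myofibroblast-like cells and 39.7 CPM in other fibroblast-like cells. Thbs1, thrombospondin, was at 518 CPM and 188 CPM in the same order.

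Of 13 receptors and SMADs, 4 reached 1 or more and 2 reached -1 or less, against 8.36% and 8.91% of all genes. Their median was 0.40, against 0.09 for all genes. The co-receptors Eng (log2 ratio 3.11) and Tgfbr3 (1.70) and the signal carrier Smad3 (1.35) were higher in myofibroblast-like cells, and the receptor Tgfbr2 (-1.36) was lower. Of 12 TGF-beta response genes, 6 reached 1 or more and 2 reached -1 or less, with a median of 0.91. Tgfbi, a secreted matrix protein, stood at 2262 CPM in myofibroblast-like cells and 39.9 CPM in other fibroblast-like cells. Tagln and Acta2, which also encode the contractile apparatus of myofibroblasts and smooth muscle, had ratios of 4.54 and 2.93. Of 5 tested genes for emilin-binding integrin chains and processing, 3 reached 1 or more and 0 reached -1 or less. Their median was 1.08. The integrin chain Itga9 was at 317 CPM in myofibroblast-like cells and 30.6 CPM in other fibroblast-like cells, and Htra1, a secreted serine protease, at 2031 CPM and 70.4 CPM in the same order.

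The second comparison set adventitial fibroblast-like cells against lipofibroblast- or matrix-like cells. Ltbp4 was at 705 CPM in adventitial and 309 CPM in lipofibroblast- or matrix-like cells, a log2 ratio of 1.19. Ltbp3 was at 184 CPM and 90.1 CPM in the same order, a ratio of 1.02. Ltbp2 was at 263 CPM in adventitial and 91.7 CPM in lipofibroblast- or matrix-like cells, a ratio of 1.51. Emilin2 had a ratio of 2.24 at low levels, while Ltbp1 (0.25) and Emilin1 (-0.13) were nearly equal in the classes. In all, 4 of 6 members were at 1 or more, where 10.2% of all genes were, and 0 of 6 at -1 or less, where 7.62% were. Ltbp3 did not reach 1 with a pseudocount of 5 CPM (0.99) and with totals scaled without mitochondrial, ribosomal protein and haemoglobin genes (0.97).

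The adventitial Ltbp2 level came from a part of the class. At a finer clustering, 102 of its cells led by C1qtnf3, Cldn11 and Penk had 559 CPM of Ltbp2 with a UMI in 80.4% of cells. These 102 cells got no name at that clustering, and none of the 12 adventitial markers was among their 10 leading genes, so the adventitial label rests on the other cells. Those 140 cells, led by Dcn, Lum and Ccl11, had 57.1 CPM in 27.9%. Without the C1qtnf3 part the log2 ratio of Ltbp2 over lipofibroblast- or matrix-like cells was -0.67, and that of Ltbp1 -0.62. Under the stricter cell filter the ratio of Ltbp2 was -0.41. Emilin2 showed the opposite arrangement, at 59.4 CPM (29.3%) in the Dcn part and 14.8 CPM (5.88%) in the C1qtnf3 part. Ltbp4 was high in both, at 776 CPM in the Dcn part and 603 CPM in the C1qtnf3 part, as was Ltbp3, at 185 and 182 CPM. Ltbp1 was at 34.3 CPM in the Dcn part and 105 CPM in the C1qtnf3 part.

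**Figure D4:**
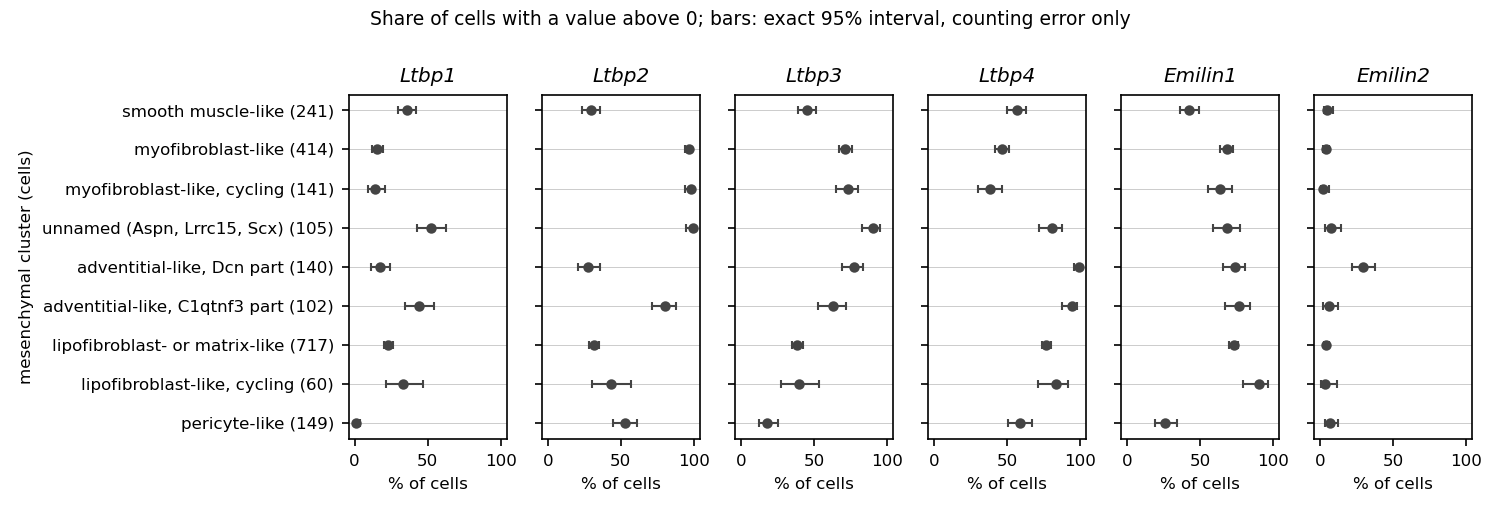
Percent of cells with a UMI of each member in the mesenchymal classes, with cycling cells and the 2 parts of the adventitial class on rows of their own and the number of cells in brackets; the C1qtnf3 part got no name at the finer clustering. Points are shares, with exact 95% intervals that cover counting error only. Ltbp2 is in 96.8% of all 555 myofibroblast-like cells, and in 80.4% of the C1qtnf3 part against 27.9% of the Dcn part, while Ltbp4 is in 94.1% and 99.3% of these parts.

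Of 18 microfibril and elastic fibre partners tested between these classes, 10 reached 1 or more and 2 reached -1 or less. The shares of all genes were 10.2% and 7.62%. The partners' median was 1.06, against -0.03 for all genes. Fbln2 was at 94.3 CPM in adventitial and 4.28 CPM in lipofibroblast- or matrix-like cells. Mfap5, a microfibril protein, was at 1652 CPM in adventitial and 97.4 CPM in lipofibroblast- or matrix-like cells. Fbn1, the main microfibril protein, was at 1059 CPM in adventitial cells and 560 CPM in lipofibroblast- or matrix-like cells, below the size used for a call. Of the ligands and anchors, 2 of 5 were at 1 or more, among them Tgfb3 at 136 CPM in adventitial and 29.1 CPM in lipofibroblast- or matrix-like cells. Of the activators 5 of 12 and of receptors and SMADs 2 of 13 were at 1 or more, where 10.2% of all genes were. Response genes had 6 of 12 there, and integrin chains and processing genes 2 of 5. The medians, in this order of lists, were 0.81, 0.22, 0.54 and 0.95. Only 1 gene of these lists, a response gene, was at -1 or less, where 7.62% of all genes were.

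The third comparison, of smooth muscle-like with myofibroblast-like cells, concerned the contractile cells. Of 10 smooth muscle markers, 4 were highest in the smooth muscle-like cells and 5 in the unnamed mesenchymal cluster, which was in neither group here. Ltbp2 was at 142 CPM in smooth muscle-like and 756 CPM in myofibroblast-like cells, a log2 ratio of -2.41. Ltbp1 was at 90.6 CPM in smooth muscle-like and 28.3 CPM in myofibroblast-like cells, a ratio of 1.65. Ltbp3 had a ratio of -1.03, close to the size used for a call, and was at -0.95 under the stricter cell filter. Ltbp4 had 0.56, Emilin1 -0.77 and Emilin2 0.91. Of the 6, 1 was at 1 or more, where 7.81% of all genes were, and 2 were at -1 or less, where 13% were, with a median over all genes of -0.28.

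Microfibril partners were divided as well: of 19 tested, 10 reached 1 or more and 7 reached -1 or less. The shares of all genes were 7.81% and 13%. The partners' median was 1.24, against -0.28 for all genes. Fbln5 was at 367 CPM in smooth muscle-like and 16.5 CPM in myofibroblast-like cells, and Fbln1, another fibulin, at 9.84 CPM and 234 CPM in the same order. Thsd4, a microfibril-associated ADAMTS-like protein, had a ratio of 3.44. The integrin chain Itga4 was at 287 CPM in smooth muscle-like and 16.8 CPM in myofibroblast-like cells, whereas Itga9 was at 75.9 CPM and 317 CPM in the same order. Of these 2 emilin-binding integrin chains, Itga4 was thus higher in smooth muscle-like cells and Itga9 in myofibroblast-like cells. Smooth muscle-like cells had both. Tgfbi (-5.89), Mmp2 (-4.50), a protease that can release TGF-beta, and Plat (-3.58) were lower in smooth muscle-like cells.

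The fourth comparison set 4267 myeloid-like cells against 2069 mesenchymal-like cells. The 4 latent TGF-beta binding proteins were low in myeloid cells. Ltbp2 was at 7.21 CPM in myeloid and 382 CPM in mesenchymal cells (log2 ratio -5.55), and Ltbp4 at 8.28 CPM and 272 CPM in the same order (-4.88). Ltbp3 had a ratio of -4.75 and Ltbp1 -4.23. Emilin1 was at 19.98 CPM in myeloid and 197 CPM in mesenchymal cells (-3.24). Emilin2 was at 262 CPM in myeloid cells, 56.5% of which had a UMI, and 13.2 CPM in mesenchymal cells, 6.23% of which had 1 or more, a ratio of 4.21. So 5 of 6 members were at -1 or less, where 32.3% of all genes were, and 1 of 6 was at 1 or more, where 15% were.

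Partners of the matrix followed the latent TGF-beta binding proteins, while part of the ligand system followed Emilin2. Of 21 microfibril and elastic fibre partners, 20 reached -1 or less and 0 reached 1 or more in myeloid over mesenchymal cells. The shares of all genes were 32.3% and 15%. The partners' median was -4.95, against -0.46 for all genes. The ligand Tgfb1 was at 320.0 CPM in myeloid and 49.5 CPM in mesenchymal cells. Nrros, which tethers latent TGF-beta to the surface of myeloid cells, was at 88.3 CPM and 5.66 CPM in the same order. The ligands Tgfb2 (-5.37) and Tgfb3 (-4.75) were lower in myeloid cells. Mmp9, a protease stored by neutrophils, was the 1 activator of 13 at 1 or more, with 212 CPM in myeloid and 6.31 CPM in mesenchymal cells. Itga4 was at 154 CPM in myeloid and 53.1 CPM in mesenchymal cells.

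The sort marker of the bulk library was then used to divide the mesenchymal cells of the single-cell table. Pdgfra had a UMI in 782 cells, 37.8% of them, and in 80.7% of myofibroblast-like, 57.4% of adventitial fibroblast-like and 21.9% of lipofibroblast- or matrix-like cells. Ltbp2 was at 518 CPM in cells with Pdgfra and 294 CPM in cells without, a log2 ratio of 0.81, and 74.7% against 45.2% of cells had a UMI of it. The medians of detected genes were 2828.5 with Pdgfra and 2379 without. Ltbp1 had a ratio of -0.45, Ltbp3 0.39, Ltbp4 -0.10, Emilin1 0.03 and Emilin2 -0.01. None of the 6 reached 1, where 2.57% of all genes were, and none reached -1, where 3.02% were; no p can be given for cells of 1 library.

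Within the 3 fibroblast-like classes, Ltbp2 was not higher in the cells with Pdgfra. Among myofibroblast-like cells it was at 742 CPM with Pdgfra and 821 CPM without. Among lipofibroblast- or matrix-like cells it was at 85.2 CPM with Pdgfra and 93.6 CPM without, and among adventitial fibroblast-like cells at 239 CPM with and 296 CPM without. In smooth muscle-like cells (188 CPM with, 141 CPM without) and pericyte-like cells (351 CPM with, 305 CPM without) it was higher with Pdgfra, but only 7 and 2 cells of these classes had a Pdgfra UMI.

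The bulk library of PDGFRA+ cells put the members on a scale per length. It held 171910584 estimated reads over 16906 listed genes, and levels are TPM with exact 95% Poisson intervals for counting error only. Ltbp2 was the highest member at 1067 TPM (1065 to 1070), in place 147 of all listed genes, followed by Ltbp4 at 915 TPM (912 to 918) in place 167 and Ltbp3 at 615 TPM (612 to 617) in place 242. Emilin1 was at 301 TPM, in place 485. Emilin1, the lowest of these 4, stood at the 97.1st percentile of the listed genes. Ltbp1 was at 54.2 TPM and Emilin2 at 17.6 TPM (17.2 to 18.1), both above the median of 8.47 TPM. In bulk RNA, fewer cells that make a gene and less of its RNA per cell cannot be told apart.

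**Figure D5:**
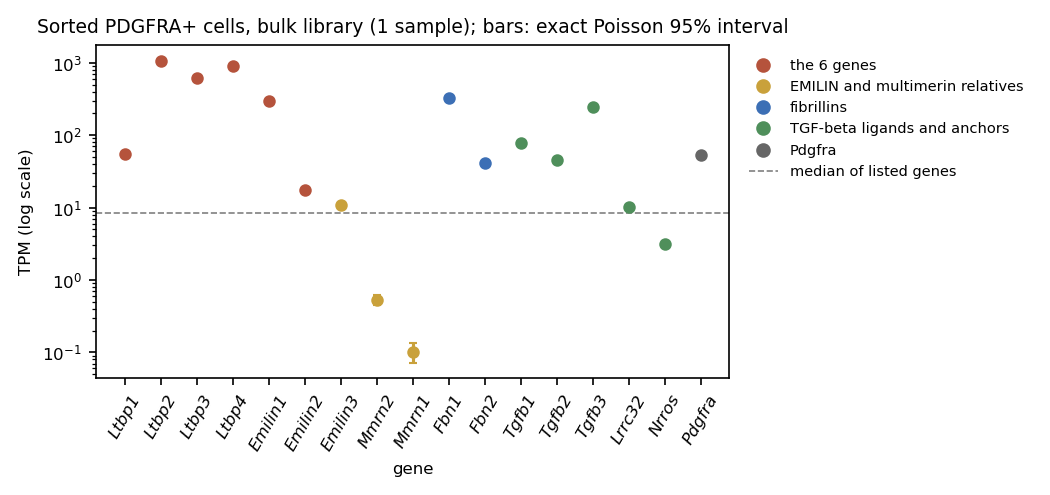
Deposited TPM (log scale) of the 6 members and of named partners in the bulk library of sorted PDGFRA+ cells, 1 library with no replicate; bars are exact 95% Poisson intervals and the dashed line is the median of all listed genes. Ltbp2 (1067), Ltbp4 (915) and Ltbp3 (615) lie well above Ltbp1 (54.2) and Emilin2 (17.6).

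The other genes of the system gave the members' levels their setting. Eln, elastin itself, was at 12292 TPM in place 2 of the listed genes, Mfap4 at 6144 TPM and Fbn1 at 327 TPM. Over the 21 microfibril and elastic fibre partners the median was 232 TPM. Of the ligands, Tgfb3 was at 246 TPM, Tgfb1 at 78.9 TPM and Tgfb2 at 46.1 TPM, and of the membrane anchors Lrrc32 was at 10.3 TPM and Nrros at 3.19 TPM. Emilin3, the third emilin, was at 10.8 TPM. The vascular relatives Mmrn2 and Mmrn1 were at 0.53 and 0.10 TPM.

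The sorted marker Pdgfra was at 54.0 TPM. All 12 adventitial markers were listed with a median of 368 TPM, and all 12 myofibroblast markers with a median of 103 TPM. All 14 lipofibroblast markers were listed with a median of 75.5 TPM, from 0.04 to 345 TPM. Not all of these markers were highest in their own class in single cells, and which classes the sort held was not tested. Beside the Emilin2 level, 59 of 63 myeloid markers were listed, at 0.02 to 979 TPM with a median of 1.38 TPM, and 14 reached 10 TPM. The highest of them, Nr4a1 at 979 TPM and Fn1 at 799 TPM, are also made by fibroblasts. The neutrophil genes S100a9 (45.1 TPM), S100a8 (23.9 TPM) and Ngp (17.9 TPM) stood above Emilin2 in the same library, and the antigen-presentation genes H2-Aa and H2-Ab1 were at 11.7 and 11.3 TPM. Ctsk was at 121 TPM and Ace at 47.4 TPM. The defining leukocyte gene Ptprc was at 1.99 TPM, the monocyte genes Ly6c2 and Ccr2 at 4.17 and 0.31 TPM, and the basophil protease Mcpt8 at 0.07 TPM. The part of myeloid RNA in the bulk Emilin2 level was not tested.

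Genes whose levels ran most like a member were sought over the 23 named classes of at least 20 cells, as a description of 1 library in which all points share depth correction and free RNA. Classes without a name were left out. For Ltbp1 this dropped its highest class, the unnamed endothelial cells, and for Ltbp2 and Ltbp3 theirs, the unnamed mesenchymal cluster. Ltbp4 ran most like Fbn1 (Pearson r of log2(CPM + 1) 0.95), then Sncaip and Mmp14 (0.91 each). Ltbp2 ran most like Sdc2 (0.93), C1qtnf7 and Hoxb6 (0.92 each), and Ltbp3 most like Rab34 and Spaca6 (0.95 each). Ltbp1 ran most like Zfp37 (0.88) and Dpysl3 (0.87), and Emilin1 most like Pros1 (0.87) and Fat4 (0.83). Emilin2 ran most like Alox5ap, Itgam and Tyrobp (0.94 each), which are leukocyte genes. Among the members themselves, Ltbp1 and Ltbp4 had the highest r (0.81), while the r of Ltbp3 and Emilin2 was -0.59.

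Members were found together in the same cells about as often as their single shares would give. There were 135 combinations of 9 classes and 15 pairs. In each, the product of the single shares lay inside the exact interval of the joint share. The joint share was above the product in 82 of them. For rarely detected members, such as Ltbp1 with Ltbp3 in classical monocyte-like cells (0% to 1.41%), the product could hardly lie outside. Such pairs say little about joint detection. In myofibroblast-like cells, 70.1% had both Ltbp2 and Ltbp3 (66.1% to 73.9%), beside a product of 69.6%. The gap was wider for Ltbp3 and Ltbp4, at 35.1% (31.2% to 39.3%) beside a product of 31.9%. Most often 3 of the 6 members were detected in a myofibroblast-like cell (35% of cells), and 0.721% of those cells had none. Within the myofibroblast-like class, Ltbp2 was at 651 CPM in the 141 cycling cells and 793 CPM in the 414 others, and Ltbp4 at 77.3 CPM in cycling and 108 CPM in the other cells.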

How the data were processed

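Single cells of the sorted peripheral lung were captured with the 10x Chromium 3′ kit (v3), and PDGFRA+ cells were sorted into Trizol for bulk RNA extraction, per the labels' protocols. Cell Ranger 5.0 and Seurat 3.2.2 were used for the single-cell library and mm10 with Trim Galore, HISAT2, featureCounts and DESeq2 for the bulk library, per the submitters' processing notes. For the single-cell library no genome build was found in the sources used here. The deposited single-cell values were treated as a score: they are whole numbers, but the authors had corrected them for depth by a step not given in the sources used here. The largest cell total was 1.79 times the smallest, and among the 1000 cells with the fewest genes the value 2 (32.5% of values above 0) was more frequent than 1 (27.7%), so Poisson intervals and thinning were not used for them. The bulk table holds expected counts (15.9% not whole), TPM and FPKM per gene, as deposited by the authors.

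Cells with at least 500 detected genes and at most 10% mitochondrial UMIs were kept, and 387 of 10660 (3.63%) were left out as predicted doublets by a neighbour score against simulated doublets. The 2000 most variable genes, without the 6 members and the partner lists, gave 30 components, a graph of 15 neighbours and 40 Leiden clusters at resolution 1, joined into 27 classes by marker genes. How close classes were told apart (5 contractile markers were not used between smooth muscle and myofibroblasts) was set after the clusters were seen. Ratios are log2 of CPM with a pseudocount of 1 in genes with at least 20 UMIs in the cells compared, and a size of 1 or -1 was used as a call without any test. Members and gene lists were chosen with earlier results of these data known. All members are named, and of each list up to 4 genes with the largest ratios in a comparison and at least 100 UMIs; other genes named, such as those of few UMIs, Fbn1, Tgfb3 and the markers, were chosen after their values were seen. The likeness to a member was Pearson r over 23 named classes, without the unnamed ones, among 12877 genes with at least 100 UMIs. Scripts ran in Python 3.11.15 with numpy 2.4.6, scipy 1.17.1, pandas 2.3.3, scikit-learn 1.9.0, scikit-image 0.26.0, igraph 0.11.9 and leidenalg 0.10.2. The ratio step was also run on simulated Poisson counts with planted log2 ratios. Those counts had no spread between cells or animals and no depth correction, so they checked the arithmetic only.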

Additional observations from a re-analysis of the deposited data

How the results depend on the processing

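The log2 ratios of the 6 members in myeloid over mesenchymal cells kept their sign and size call under all 11 alternatives, with Emilin2 between 3.88 and 4.30 and Ltbp2 between -5.71 and -4.99. In myofibroblast-like over other fibroblast-like cells, Ltbp2 (2.45 to 3.46) and Ltbp4 (-2.03 to -1.63) did so under all 13. The other calls moved as follows, and except where the alternative regroups or removes cells by construction, the cause was not tested. In myofibroblast-like over other fibroblast-like cells, members at 1 or more numbered 2 in place of 1 under the stricter cell filter (1000 genes, 5% mitochondrial UMIs), at resolution 0.5 and with the unnamed mesenchymal cluster joined, and members at -1 or less numbered 1 in place of 2 with predicted doublets kept and with a pseudocount of 5, which also brought the percent of all genes at 1 or more to 5.56. In adventitial over lipofibroblast- or matrix-like cells, Ltbp2 was at -0.41 under the stricter cell filter, -0.67 at resolution 2 and -0.67 without the C1qtnf3 part, in place of 1.51. Ltbp3 kept its call under 10 of 12, and was at 0.97 with totals scaled without mitochondrial, ribosomal protein and haemoglobin genes and at 0.99 with a pseudocount of 5, in place of 1.02. There 4.88% of all genes were at -1 or less with a pseudocount of 5 and 6.75% at 1 or more with a minimum of 100 UMIs. In smooth muscle-like over myofibroblast-like cells, members at -1 or less numbered 1 in place of 2 under the stricter cell filter and with the same scaling, members at 1 or more numbered 2 in place of 1 with a pseudocount of 0.1, and 8.44% of all genes were at -1 or less with a pseudocount of 5. Of the 6 members, 3 had their highest level in the same class under the stricter cell filter and 3 at resolution 0.5. With at least 2 Pdgfra UMIs as the threshold, Ltbp2 was at 0.98 and none of the 6 was called. In bulk, 4 members stood above the 90th percentile with FPKM and among genes at 1 TPM or more, as with TPM, and 5 with CPM, where Ltbp1 was at the 93.7th in place of the 83.8th. Alternatives that join the unnamed mesenchymal cluster, or leave out cycling cells, the C1qtnf3 part or basophil- or mast cell-like cells, were chosen after seeing the data. No paired analysis was possible because each group had 1 library. With 1 library a group, depth limits the shares of rare classes, such as the 36 alveolar type 1-like cells, and spread between animals was not measured.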

Other observations

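Relatives and partners of the members had their highest levels in a range of classes. Mmrn1, a multimerin related to the emilins, was at 1418 CPM in lymphatic endothelial-like cells and at 4.78 CPM in the next class, and Mmrn2, its relative of blood vessel walls, was highest in large-vessel endothelial-like cells at 226 CPM. Itgb6, the epithelial integrin chain that releases TGF-beta from its propeptide, was highest in alveolar type 1-like cells at 306 CPM, a class that also had the second highest level of Ltbp3. Lrrc32, a membrane anchor of latent TGF-beta, was highest in lymphatic endothelial-like cells at 103 CPM. Tgfb1 and the myeloid anchor Nrros were both highest in non-classical monocyte-like cells, at 512 and 215 CPM, where Emilin2 was at 475 CPM. Tgfb2 was highest in smooth muscle-like cells at 380.2 CPM, and Tgfb3 in the unnamed mesenchymal cluster at 160 CPM.

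The 1033 cells left out for mitochondrial UMIs or as predicted doublets had 138 CPM of Ltbp2, 106 CPM of Ltbp4 and 98.3 CPM of Emilin2, beside 87.3, 79.6 and 114 CPM in the kept cells.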
